A study of Mus musculus with 19 samples.

Results

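The genes described here are 6 genes of the receptor-mediated endocytosis apparatus of the proximal tubule, Lrp2, Cubn, Amn, Dab2, Clcn5 and Ocrl, chosen by symbol from the 40413 genes of a mouse kidney RNA-seq count table. All 6 were found, and all 6 passed the filter on low counts. Kidney RNA was sequenced from 19 adult mice, 1 library per mouse. BPH/2J is an inbred strain with high blood pressure, and BPN/3J is the strain with normal blood pressure bred beside it, so hypertension and genetic background cannot be told apart between them. Cmpd17b, a small molecule that acts on formylpeptide receptors, was injected into the peritoneal cavity on each of 28 days at 50 mg/kg/day. There were 4 groups, namely BPH/2J mice given Cmpd17b (5 libraries), BPH/2J mice given vehicle (5), BPN/3J mice given Cmpd17b (5) and BPN/3J mice given vehicle (4). No group carried an engineered allele, and sex is not given in the labels used here. All libraries carry the same batch label.

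The library labelled BPH/2J Cmpd17b replicate 1 stood apart from the others and is left out of every value below unless it is named, so that group has 4 libraries. Its Lrp2 level was 3.26 CPM (counts scaled to a common library total, here before TMM scaling) and its Amn level 0.162 CPM, whereas the lowest of the other 18 libraries had 878.8 CPM of Lrp2 and 71.3 CPM of Amn. Dab2 and Ocrl, which many cell types express, were at 31.4 and 10.5 CPM in it. It held 75670.5 CPM of 15 heart muscle genes in sum and 325 CPM of 29 proximal tubule markers, so its profile goes against its kidney label, and values given with it taken in do not describe kidney alone. Total counts were 21400119 to 28961338 in treated BPH/2J mice, 25840897 to 33616468 in vehicle BPH/2J mice, 25546687 to 34244288 in treated BPN/3J mice and 28527520 to 40998662 in vehicle BPN/3J mice. The left-out library had 30950632. Over the 18 libraries the members had between 221 counts (Ocrl) and 60079 counts (Lrp2) per library. The 4 remaining treated BPH/2J libraries held 145 to 208 CPM of the same heart muscle genes in sum, against 5.86 to 14.96 CPM in vehicle BPH/2J mice, and the part of this in the results below was not tested.

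The proximal tubule reabsorbs the protein that passes the glomerular filter. Megalin (encoded by Lrp2), a giant receptor of the lipoprotein receptor family, and cubilin (Cubn), which has no membrane span of its own and needs amnionless (Amn) to reach the apical membrane, bind albumin, vitamin-binding proteins and hormones. The adaptor Dab2 links the receptor tails to clathrin. The chloride/proton exchanger encoded by Clcn5 supports the acidification of endosomes, and the phosphoinositide phosphatase encoded by Ocrl controls membrane traffic between endosomes. In humans, loss of CLCN5 or OCRL causes Dent disease and loss of OCRL also Lowe syndrome, while loss of CUBN or AMN causes Imerslund-Gräsbeck syndrome.

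The proximal tubule label holds in these libraries. Slc34a1, the apical phosphate transporter, averaged 3688 ± 751 CPM in treated BPH/2J, 3255 ± 796 CPM in vehicle BPH/2J, 3730 ± 302 CPM in treated BPN/3J and 3467 ± 664 CPM in vehicle BPN/3J mice (SD, n = 4, 5, 5 and 4). None of 29 proximal tubule markers was at 0 in any of the 18 libraries.

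The upstream sequences of the 3 receptor-complex genes are shown as a description. They are the 250 bases before the annotated start in RefSeq (assembly GRCm38.p6, the C57BL/6J reference strain and not the strains studied), 5′ to 3′ on the gene's strand. Capitals mark CpG dinucleotides (CG, which reads the same on both strands).
Lrp2, chr2:69586030-69586279, minus strand: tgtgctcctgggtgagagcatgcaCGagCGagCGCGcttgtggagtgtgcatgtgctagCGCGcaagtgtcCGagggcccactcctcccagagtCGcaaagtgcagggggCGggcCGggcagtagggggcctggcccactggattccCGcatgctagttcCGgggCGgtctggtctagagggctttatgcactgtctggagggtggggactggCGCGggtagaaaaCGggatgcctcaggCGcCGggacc
Cubn, chr2:13491877-13492126, minus strand: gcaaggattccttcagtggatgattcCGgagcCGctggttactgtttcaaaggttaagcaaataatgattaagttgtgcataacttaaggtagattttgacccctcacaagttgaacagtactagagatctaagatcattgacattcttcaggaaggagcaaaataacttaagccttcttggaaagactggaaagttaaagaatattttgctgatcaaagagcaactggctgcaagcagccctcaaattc
Amn, chr12:111270846-111271095, plus strand: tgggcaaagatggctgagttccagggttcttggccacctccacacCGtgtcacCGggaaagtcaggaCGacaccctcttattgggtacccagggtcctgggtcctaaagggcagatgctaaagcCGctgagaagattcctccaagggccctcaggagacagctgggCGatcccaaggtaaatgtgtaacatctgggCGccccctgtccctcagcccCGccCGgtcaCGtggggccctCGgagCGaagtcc

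The Lrp2 stretch is rich in G and C (66.4%) and holds 18 CpG dinucleotides. The Cubn stretch has a GC content of 39.6% and holds 2 CpG. The Amn stretch has a GC content of 61.2% and holds 11 CpG. The 3 receptor-complex genes thus differ widely in this window. Whether the window bears on how these genes varied from mouse to mouse, described further on, was not tested. Of 32851 annotated promoters of the same length, 30267 (92.1%) held at least 1 CpG, with a median of 6, and the median GC content was 52.4%. The 6 genes had 8 annotated starts in the table, and the 5 stretches of Dab2, Clcn5 and Ocrl held 2 to 17 CpG. These are counts of letters only. Neither methylation nor the binding of any factor was measured.

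Per length, megalin, Dab2 and amnionless mRNA were the most abundant and Ocrl the least. Levels were divided by the union of annotated exons (16559 bases for Lrp2, 11262 for Cubn, 1701 for Amn, 5217 for Dab2, 8390 for Clcn5 and 6276 for Ocrl, from an annotation of the earlier build GRCm38). In treated BPH/2J mice Lrp2 stood at 80.3 ± 18.8, Dab2 at 72.3 ± 10.1 and Amn at 61.3 ± 24.6 CPM per kb of exon (SD, n = 4). In vehicle BPH/2J mice Lrp2 stood at 69.0 ± 15, Dab2 at 65.1 ± 13.7 and Amn at 58.4 ± 19.04 CPM per kb (n = 5). The ranges of these 3 genes overlapped in both BPH/2J groups, so they could not be ordered beyond their spread there. In treated BPN/3J mice Lrp2 stood at 96.8 ± 13.3, Dab2 at 81.0 ± 2.16 and Amn at 66.0 ± 11.04 CPM per kb (n = 5). These ranges overlapped too, at 77.2 to 114.6 for Lrp2, 78.8 to 84.2 for Dab2 and 50.3 to 79.8 for Amn. In vehicle BPN/3J mice Lrp2 stood at 91.7 ± 7.91, Dab2 at 76.9 ± 4.12, Amn at 61.0 ± 4.06, Cubn at 25.6 ± 3.69, Clcn5 at 10.9 ± 1.07 and Ocrl at 2.56 ± 0.182 CPM per kb (n = 4). The ranges of neighbours in that order did not overlap in vehicle BPN/3J mice, with Lrp2 at 85.3 to 102 and Dab2 at 72.8 to 81.0 CPM per kb. Cubilin mRNA was less abundant per length than megalin mRNA in every group. The ratio of Cubn to Lrp2 per kb was 0.246 ± 0.0284 in treated BPH/2J, 0.261 ± 0.0213 in vehicle BPH/2J, 0.266 ± 0.0327 in treated BPN/3J and 0.278 ± 0.0300 in vehicle BPN/3J mice (SD). The ratio of Amn to Cubn per kb was 3.67 ± 2.92 in treated BPH/2J, 3.37 ± 1.32 in vehicle BPH/2J, 2.68 ± 0.822 in treated BPN/3J and 2.44 ± 0.537 in vehicle BPN/3J mice. The first of these rests on treated BPH/2J replicate 5, at 7.999. Without that mouse, the highest of its group, the ratio was 2.23 ± 0.534 in treated BPH/2J mice (n = 3). Leaving out the highest mouse can only lower a mean, so this value is no like comparison with the full BPN/3J groups. The vehicle BPH/2J mean was raised by replicates 3 and 5, at 5.14 and 4.38, in which long transcripts were scarce, as given further on. Vehicle BPH/2J replicates 1, 2 and 4, at 2.09, 2.696 and 2.52, lay within the vehicle BPN/3J range of 1.99 to 3.21. The upper end of that range is BPN/3J vehicle replicate 4, in which long transcripts were the scarcest of its group. By group mean, the order of the 6 genes was the same in the 4 groups.

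**Figure D1:**
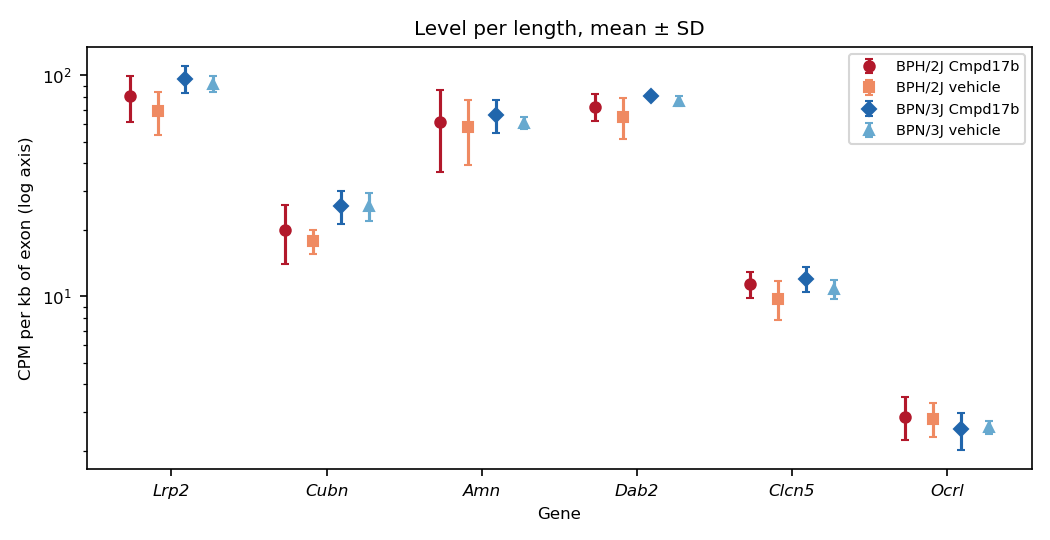
Level of each gene per kb of exon (y axis, CPM per kb, log scale) in the 4 groups; points are group means and bars SD over 4 or 5 mice. Lrp2, Dab2 and Amn lie between 58.4 and 96.8 CPM per kb, Cubn between 17.8 and 25.6, Clcn5 between 9.76 and 12.03 and Ocrl between 2.50 and 2.86.

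The first comparison set vehicle BPH/2J mice against vehicle BPN/3J mice. The fitted levels in BPH/2J mice differed from those in BPN/3J mice by -24.8% for Lrp2 and -30.4% for Cubn, and neither difference passed the test across all genes. None of the 6 genes was called by edgeR's quasi-likelihood test at a Benjamini-Hochberg adjusted p under 0.05, 2 of 6 (Lrp2 and Cubn) had an unadjusted p under 0.05, DESeq2 called 1 (Cubn) and limma-voom called 0. Over all 16421 genes tested, 10.8% were called (5.82% higher and 4.94% lower in BPH/2J) and 23.9% had an unadjusted p under 0.05. Of the members 5 had a lower and 1 a higher mean in BPH/2J. Their median was -0.20 (log2 fold change), against 0.04 over all genes. Lower RNA of a gene in whole kidney can come from fewer proximal tubule cells or from less RNA per cell, and bulk samples cannot tell these apart.

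Lrp2 was at 1550, 1110, 905, 990.0 and 1154 CPM (TMM scale) in the vehicle BPH/2J mice, against 1559, 1686, 1416 and 1413 CPM in the vehicle BPN/3J mice. BPH/2J replicate 1 lay among the BPN/3J values and the other 4 BPH/2J mice lay below all of them, so the groups overlapped in 1 mouse. The edgeR log2 fold change was -0.41 (SE 0.172, 95% interval -0.77 to -0.05, adjusted p 0.145). Without BPH/2J vehicle replicate 1 it was -0.55 (edgeR adjusted p 0.0358), which passes the threshold.

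Cubn was at 243.0, 195, 175, 188 and 201 CPM in the vehicle BPH/2J mice, against 333, 304, 279 and 235 CPM in the vehicle BPN/3J mice. The groups overlapped again through BPH/2J replicate 1, which lay just above the lowest BPN/3J mouse. The edgeR log2 fold change was -0.52 (SE 0.181, 95% interval -0.90 to -0.14, adjusted p 0.0749). This value sat close to the threshold and its call moved with the setting. DESeq2 gave -0.54 with an adjusted p of 0.0354, edgeR on only the 2 groups gave -0.54 with 0.0333, 1 surrogate variable gave -0.37 with 0.0213, and the fit without BPH/2J vehicle replicate 1 gave -0.60 with 0.0447. Without treated BPH/2J replicate 5, a library that is not in the contrast but enters the estimate of the spread, the value was -0.52 with an edgeR adjusted p of 0.0176. Limma-voom gave -0.52 with 0.0803. With the left-out library taken in, edgeR gave -0.52 for Cubn and -0.41 for Lrp2 with adjusted p of 0.835 and 0.880.

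Amn was at 76.7, 79.2, 136, 71.3 and 133 CPM in the vehicle BPH/2J mice, against 100.1, 101, 100.1 and 114 CPM in the vehicle BPN/3J mice. The BPH/2J mice fell on both sides of the BPN/3J range, 3 below it and 2 above it. The edgeR log2 fold change was -0.06 (SE 0.230, 95% interval -0.55 to 0.42, adjusted p 0.888). The mice above the range, replicates 3 and 5, were the same ones in which long transcripts were scarce, as given further on.

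The intracellular members differed by less than Lrp2 and Cubn and by more than Amn, and none was called by edgeR, DESeq2 or limma-voom. Dab2 was at 238 to 428 CPM in vehicle BPH/2J mice, against 380 to 423 CPM in vehicle BPN/3J mice, and its log2 fold change was -0.24 (SE 0.136, edgeR adjusted p 0.300). Clcn5 was at 64.5 to 105 CPM in vehicle BPH/2J mice, against 79.4 to 101 CPM in vehicle BPN/3J mice, with a log2 fold change of -0.15 (SE 0.142, edgeR adjusted p 0.543). Ocrl was at 14.3 to 22.3 CPM in vehicle BPH/2J mice, against 14.7 to 17.3 CPM in vehicle BPN/3J mice, with a log2 fold change of 0.13 (SE 0.165, edgeR adjusted p 0.663). The groups overlapped for all 3 genes. The vehicle BPH/2J mice were the more spread out in 5 of the 6 genes, with coefficients of variation in BPH/2J against BPN/3J mice of 21.8% against 8.62% for Lrp2, 32.6% against 6.66% for Amn and 21.1% against 5.35% for Dab2. Cubn was the exception at 12.9% in BPH/2J against 14.5% in BPN/3J mice. The difference in spread was not tested.

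**Figure D2:**
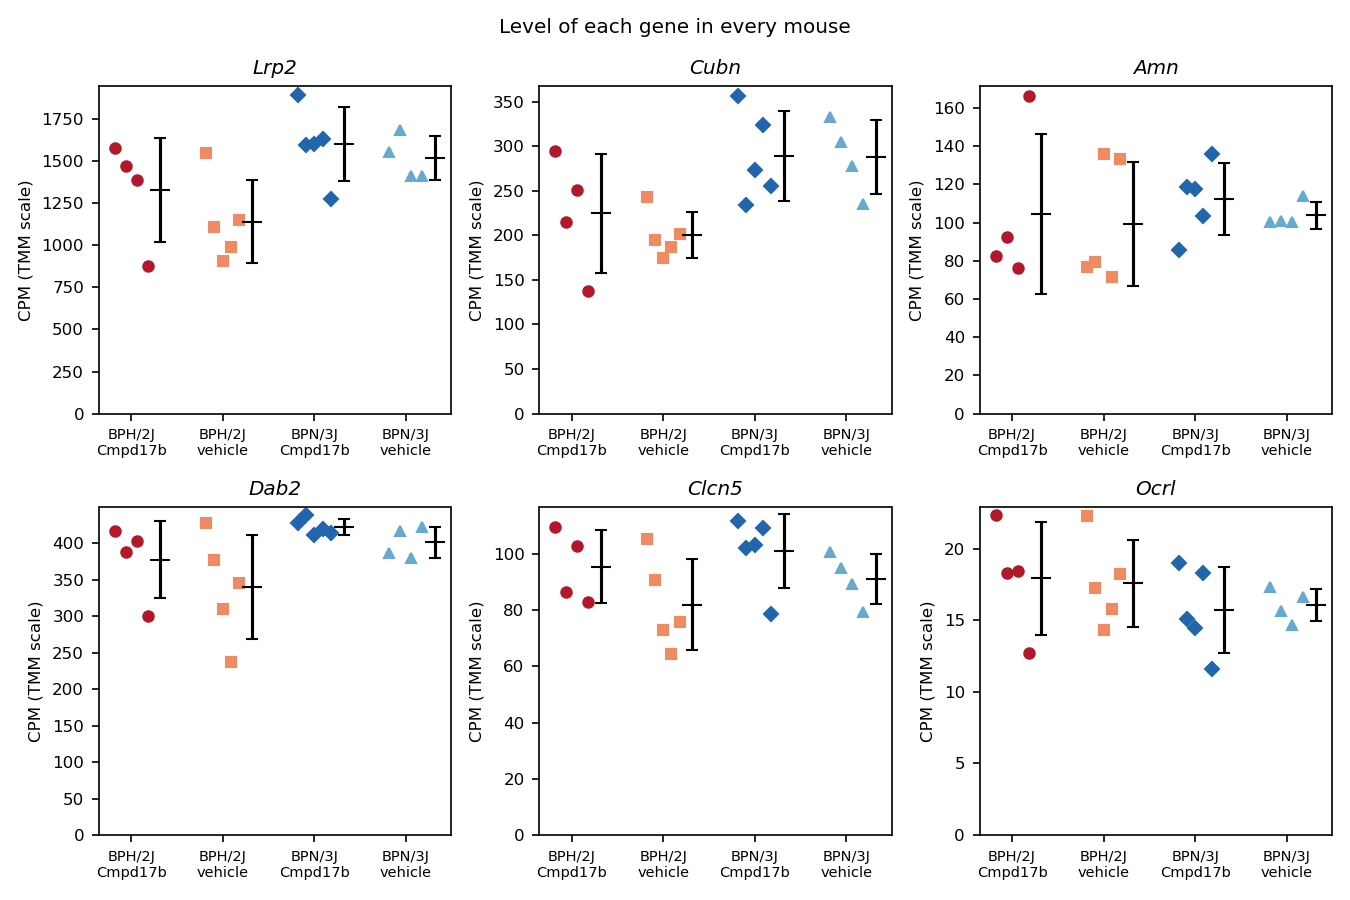
Level of the 6 genes (y axis, CPM on the TMM scale, starting at 0) in every mouse, by group; each point is 1 mouse and the line and bar beside it give the mean and SD. In Lrp2, 4 of 5 vehicle BPH/2J mice lie below all vehicle BPN/3J mice, and in Amn the vehicle BPH/2J mice lie on both sides of the BPN/3J values.

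Under Cmpd17b the strain difference had the same sign for each of the 6 genes and none was called by edgeR, with 0 of 6 also at an unadjusted p under 0.05 and 0 by DESeq2 and by limma-voom. Over all genes 10.4% were called (5.71% higher and 4.65% lower), and 24.1% had an unadjusted p under 0.05. Lrp2 was at 1582, 1471, 1390 and 879 CPM in treated BPH/2J mice, against 1898, 1599, 1605, 1633 and 1278 CPM in treated BPN/3J mice. The groups overlapped, and BPH/2J replicate 5 was the lowest of all 18 libraries. The edgeR log2 fold change was -0.27 (SE 0.173, adjusted p 0.363). Cubn was at 295, 215, 251 and 138 CPM in treated BPH/2J mice, against 357, 235, 274, 324 and 255 CPM in treated BPN/3J mice. These groups overlapped too, and the edgeR log2 fold change was -0.36 (SE 0.183, adjusted p 0.239). Amn was at 82.4, 92.2, 76.3 and 166 CPM in treated BPH/2J mice, against 85.6, 119, 117, 103 and 136 CPM in treated BPN/3J mice. Its highest value of all 18 libraries came from BPH/2J replicate 5, the mouse with the lowest Lrp2 and Cubn. The edgeR log2 fold change of Amn was -0.11 (SE 0.231, adjusted p 0.811), and without that mouse it was -0.42. Dab2, Clcn5 and Ocrl gave -0.16, -0.08 and 0.20 (edgeR adjusted p 0.499, 0.765 and 0.497). With the left-out library taken in, the values were -0.59 for Lrp2, -0.68 for Cubn and -0.43 for Amn (edgeR adjusted p 0.635, 0.549 and 0.745). The 2 strain comparisons share no mice, but both rest on the same estimate of the spread.

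**Figure D3:**
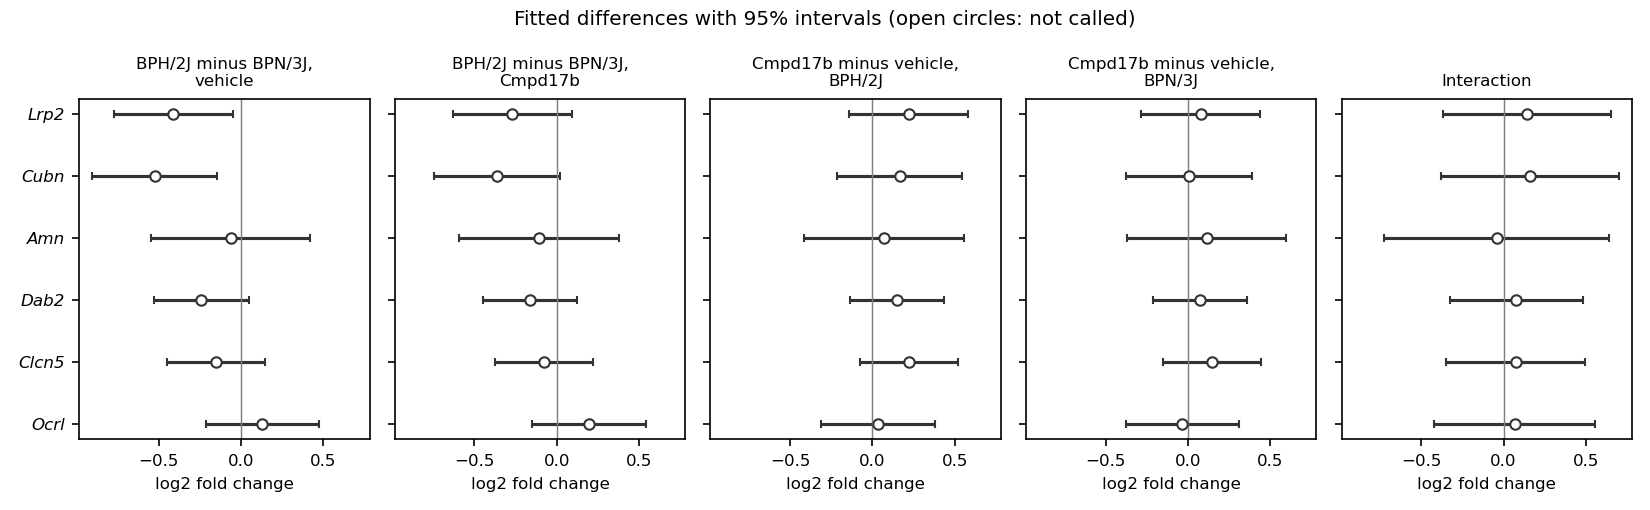
edgeR log2 fold change of each gene (x axis) with its 95% interval in the 5 comparisons; open circles mark values with an adjusted p of 0.05 or more. All 30 circles are open, and the intervals of Lrp2 and Cubn under vehicle lie below 0.

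The second question is what Cmpd17b did within each strain. In BPH/2J mice all 6 genes had a positive log2 fold change and none was called by edgeR, DESeq2 or limma-voom, with 0 of 6 at an unadjusted p under 0.05. Over all genes edgeR called 0.164% (27 genes), and 3.7% had an unadjusted p under 0.05. Of the 27, 12 were heart muscle genes, which were higher in the treated BPH/2J libraries. Lrp2 averaged 1330 ± 311 CPM in treated and 1142 ± 248 CPM in vehicle BPH/2J mice (SD, n = 4 and 5), with a log2 fold change of 0.22 and a 95% interval from -0.14 to 0.58. Cubn averaged 225 ± 66.7 CPM in treated and 200.3 ± 25.8 CPM in vehicle BPH/2J mice, with a log2 fold change of 0.17 and an interval from -0.21 to 0.55. The Cubn value moved with the mouse left out, and was 0.0056 without treated BPH/2J replicate 2 and 0.34 without treated BPH/2J replicate 5. Clcn5 averaged 95.5 ± 12.9 CPM in treated and 81.9 ± 16.2 CPM in vehicle BPH/2J mice, with 0.22 and an interval from -0.07 to 0.52. Dab2, Amn and Ocrl gave 0.15, 0.07 and 0.03. The edgeR adjusted p was 1 for every member. The interval of Lrp2 does not exclude a rise of 0.58 or a fall of 0.14 on the log2 scale. The median over the members was 0.16, against -0.01 over all genes. With the left-out library taken in, all 6 values turned negative, from -0.25 (Amn) to -0.04 (Ocrl), and none was called by edgeR.

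In BPN/3J mice edgeR called no gene at all (0% of 16421, with 2.53% at an unadjusted p under 0.05), DESeq2 called 6 and limma-voom 0, and no member was among them or had an unadjusted p under 0.05. Lrp2 averaged 1603 ± 220 CPM in treated and 1518 ± 131 CPM in vehicle BPN/3J mice (n = 5 and 4), with a log2 fold change of 0.08 and an interval from -0.28 to 0.44. Cubn averaged 289 ± 50.4 CPM in treated and 288 ± 41.6 CPM in vehicle BPN/3J mice, with 0.01 and an interval from -0.38 to 0.39. Amn averaged 112 ± 18.8 CPM in treated and 104 ± 6.91 CPM in vehicle BPN/3J mice, with 0.11 and an interval from -0.37 to 0.60. Dab2, Clcn5 and Ocrl gave 0.07, 0.15 and -0.03. The interaction, which tests whether the effect of Cmpd17b differed between BPH/2J and BPN/3J, lay between -0.04 (Amn) and 0.16 (Cubn). None of the 6 was called by edgeR, by DESeq2 or by limma-voom or had an unadjusted p under 0.05, and over all genes edgeR called 0.0304%, with 3.22% at an unadjusted p under 0.05. The 5 genes behind that share were all heart muscle genes. The interval of the Lrp2 interaction ran from -0.37 to 0.65. The Cubn interaction was 0.00051 without treated BPH/2J replicate 2 and 0.34 without treated BPH/2J replicate 5.

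The members did not move independently from mouse to mouse. After each group's mean was taken out, the log2 CPM of Lrp2 and Ocrl correlated at r = 0.91 across the 18 libraries, Lrp2 and Cubn at 0.84, and Cubn and Ocrl at 0.83. Amn ran the other way, with r = -0.70 to Lrp2 and -0.73 to Cubn, the gene of its protein's partner. These are descriptions, since the genes share libraries and depth. The genes whose pattern over the 18 libraries was most like that of Lrp2, among 11920 genes, were Rimoc1, Pdcd11, Ces2h and Dido1 (r between 0.94 and 0.95). For Cubn they were Ankhd1, Smurf2, Zbed6 and Diaph2 (0.94 to 0.96), and for Amn Fbxl6, Zfp444, Map2k2 and Stard10 (0.97 to 0.98). For Dab2 they were Oxgr1, Slc22a5, Ldhd and Mttp (0.90 to 0.93), whose exon unions measure 2273 to 4411 bases. For Clcn5 they were Ppp6r3, Wnk1, Cnnm2 and Slc10a5 (0.94 to 0.96), and for Ocrl Rimoc1, Ipmk, Plekha7 and Ttbk2 (0.91 to 0.92).

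This shared movement went with the balance of long and short transcripts in a library. That balance was measured, without the 6 genes, as the mean log2 deviation of 1976 genes with exon unions of at least 6000 bases minus that of 2814 genes with at most 2000 bases. It was 0.36, -0.23, 0.07 and -0.49 in treated BPH/2J mice, 0.38, 0.05, -0.48, -0.11 and -0.38 in vehicle BPH/2J mice, 0.55, 0.11, 0.01, 0.23 and -0.31 in treated BPN/3J mice and 0.24, 0.10, 0.14 and -0.22 in vehicle BPN/3J mice. The 3 lowest libraries were all BPH/2J, namely treated replicate 5 and vehicle replicates 3 and 5. With group means taken out, Pearson's r to this balance was 0.81 for Lrp2, 0.82 for Cubn, 0.85 for Clcn5, 0.83 for Ocrl and -0.82 for Amn (n = 18, permutation tests within groups, two-sided, adjusted p between 0.000300 and 0.000612 over 6 relations). Dab2 gave 0.47 (permutation test, adjusted p 0.111). Spearman's rho was 0.74, 0.83, 0.91, 0.76 and -0.78 for these 5 genes in the same order and 0.46 for Dab2 (permutation tests, adjusted p between 0.000240 and 0.00212 for the 5 and 0.0899 for Dab2). Without the 2 libraries farthest from the median, r was 0.73 for Lrp2, 0.83 for Cubn, 0.77 for Clcn5, 0.75 for Ocrl, -0.82 for Amn and 0.36 for Dab2. Amn is the shortest of the 6 genes and the only one under 2000 bases, while Lrp2, Cubn, Clcn5 and Ocrl are over 6000 bases. These 5 genes were thus set against the mean of other genes of their own length class. The share of all long or short genes with such an r was not computed. The p values therefore do not show a relation particular to the members. Mitochondrial transcripts made up 16.6% to 26.6% of counts in treated BPH/2J, 16.0% to 21.7% in vehicle BPH/2J, 12.8% to 14.97% in treated BPN/3J and 13.2% to 16.3% in vehicle BPN/3J mice. The ranges of the strains overlapped under vehicle and did not overlap under Cmpd17b, and the difference in this share was not tested. The part of RNA quality in the strain differences was not tested directly.

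**Figure D4:**
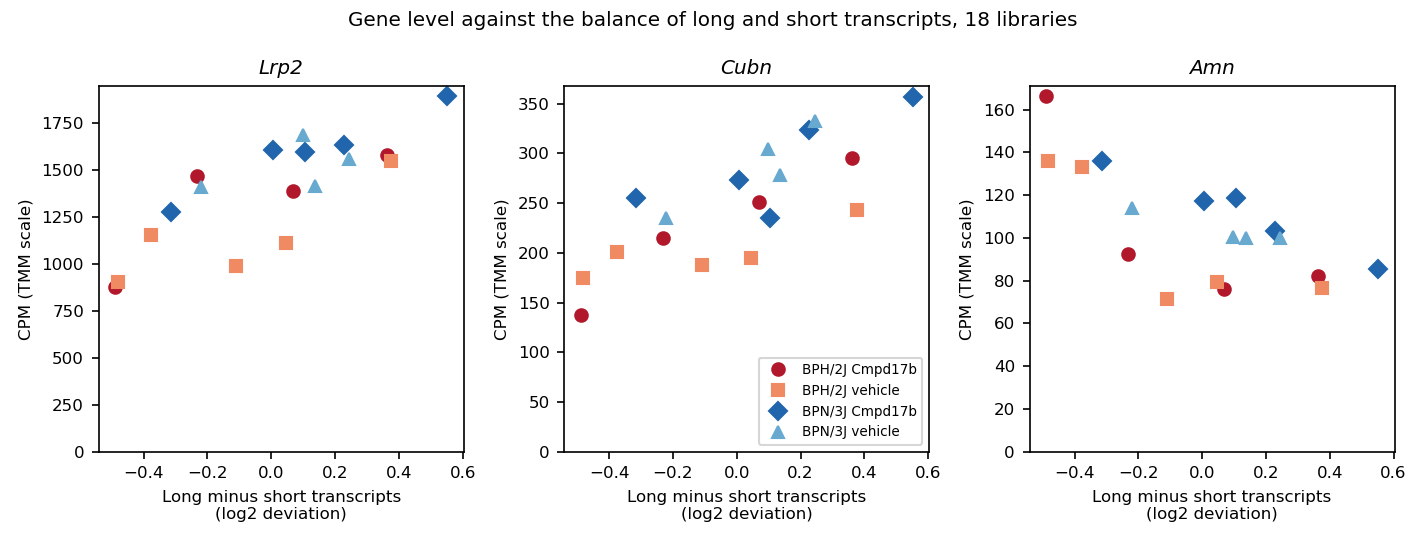
Level of Lrp2, Cubn and Amn (y axes, CPM on the TMM scale) against the balance of long and short transcripts in each library (x axis, log2 deviation of long minus short transcripts); each point is 1 of 18 mice. Lrp2 and Cubn rise along the axis and Amn falls, and the 3 libraries furthest to the left are BPH/2J mice.

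When that balance was added to the edgeR fit as a covariate, a choice made after the data were seen, the vehicle strain difference was -0.31 for Lrp2 (SE 0.111, edgeR adjusted p 0.0620), -0.39 for Cubn (edgeR adjusted p 0.0206, called) and -0.27 for Amn (edgeR adjusted p 0.182). When the 3 libraries of lowest balance were left out instead, the vehicle difference was -0.33 for Lrp2 and -0.48 for Cubn, and under Cmpd17b it was -0.12 for Lrp2 and -0.19 for Cubn. This is no independent check of Lrp2 and Cubn, whose levels followed that balance. Treated replicate 5 had the lowest Lrp2 and Cubn of all 18 libraries, so leaving it out fixes a higher treated BPH/2J level. Vehicle replicate 3 was the lowest of its group in both genes, at 905 and 175 CPM, while vehicle replicate 5 was at 1154 and 201 CPM. For Amn that setting is no test, since the 3 libraries are also the BPH/2J libraries with the highest Amn, so that leaving them out fixes a lower BPH/2J level. With 1 surrogate variable Amn was -0.32 under vehicle and -0.38 under Cmpd17b (edgeR adjusted p 0.0297 and 0.0114). The size of the Amn difference and the call of Cubn thus depended on which covariates entered.

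**Figure D5:**
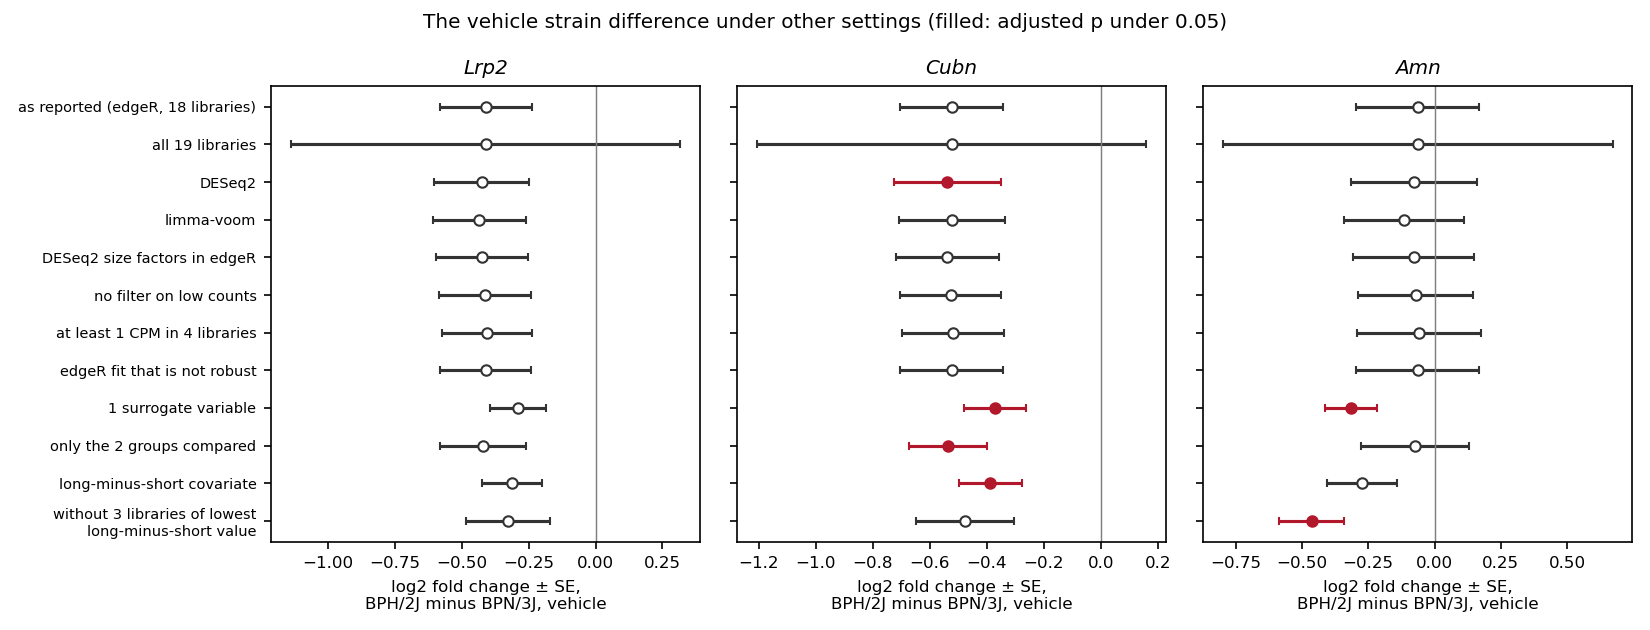
Log2 fold change of Lrp2, Cubn and Amn, BPH/2J minus BPN/3J under vehicle (x axes, each panel on its own scale), with its SE, under the reported fit and 11 other settings; filled points have an adjusted p under 0.05. Cubn is filled in 4 settings, Amn in 2 and Lrp2 in none of those shown, and in the lowest row the libraries left out are the BPH/2J libraries with the highest Amn.

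Every proximal tubule marker that edgeR called between the strains was lower in BPH/2J mice. Over all genes edgeR called 5.82% higher and 4.94% lower in BPH/2J under vehicle. Under Cmpd17b it called 5.71% of all genes higher and 4.65% lower. The summed level of the proximal tubule markers had a median of 74815 CPM in treated BPH/2J, 58202 CPM in vehicle BPH/2J, 58830 CPM in treated BPN/3J and 60950 CPM in vehicle BPN/3J mice, and all 4 ranges overlapped. Of 29 proximal tubule markers edgeR called 4 lower and 0 higher under vehicle (Fbp1, Acsm2, Slc17a3 and Slc13a1), their median being -0.28 (log2 fold change), and 1 lower (Fbp1) under Cmpd17b, with a median of -0.18. The summed level of 7 markers of the S1 and S2 segments, where uptake of filtered protein is greatest, was 5988 to 7466 CPM in treated BPH/2J, 3486 to 6758 CPM in vehicle BPH/2J, 6593 to 7413 CPM in treated BPN/3J and 5534 to 7407 CPM in vehicle BPN/3J mice. None of these 7 was called in either strain comparison. Of 10 podocyte markers 6 were called higher in vehicle BPH/2J mice, with a summed level of 180 to 259 CPM, against 108 to 140 CPM in vehicle BPN/3J mice. Under Cmpd17b 3 were called higher, with overlapping sums of 153 to 335 CPM in treated BPH/2J and 119 to 207 CPM in treated BPN/3J mice. Of 10 fibroblast and smooth muscle markers 6 were called higher, with a sum of 135 to 290 CPM in vehicle BPH/2J mice, against 70.1 to 114 CPM in vehicle BPN/3J mice. Under Cmpd17b 1 was called higher, with overlapping sums of 118 to 300.1 CPM in treated BPH/2J and 98.3 to 143 CPM in treated BPN/3J mice. No marker of these cell types was at 0 in any of the 18 libraries, and the part of these cell types in the members' values was not tested.

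The members were also measured against the mean of the 29 proximal tubule markers in the same library, on the scale of log2(CPM + 0.5). The strain differences under vehicle were then smaller in size than in the fit for Lrp2, Cubn, Dab2 and Clcn5. They were larger for Ocrl and Amn, and Amn and Clcn5 had the other sign. Lrp2 was 0.92 ± 0.318 above that mean in vehicle BPH/2J mice and 1.10 ± 0.138 above it in vehicle BPN/3J mice, a difference of -0.18 (exact permutation test, two-sided, p 0.381). Cubn differed by -0.27 (exact permutation p 0.143) and Amn by 0.13 (exact permutation p 0.460). Dab2 differed by -0.013, against -0.24 in the fit. Clcn5 differed by 0.08 (exact permutation p 0.603), against -0.15 in the fit. Ocrl was the one gene with a small p, at -5.05 ± 0.278 in vehicle BPH/2J and -5.42 ± 0.113 in vehicle BPN/3J mice, a difference of 0.37 (exact permutation p 0.0317). None of the 24 such tests in the 4 comparisons between 2 groups passed the Benjamini-Hochberg adjustment, where the Ocrl value became 0.762. The smallest p that 5 against 4 mice can give in this permutation test is 0.0159. With 24 tests a gene alone at that p could not pass, so the lack of a pass does not show that differences are absent.

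The rest of the pathway was followed in 12 lists of 236 genes, of which 230 were tested. Under vehicle edgeR called 12 higher and 15 lower in BPH/2J (11.7% of those tested, against 10.8% of all genes), and under Cmpd17b 11 higher and 12 lower (10%, against 10.4%). The lists as a whole thus held called genes at about the rate of all genes. In each comparison of Cmpd17b with vehicle, and in the interaction, edgeR called 0 of the 230, with 6 (BPH/2J), 5 (BPN/3J) and 5 (interaction) at an unadjusted p under 0.05. With the left-out library taken in, 7 of the 27 vehicle calls and 12 of the 23 Cmpd17b calls remained.

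Inpp5b, the close relative of Ocrl that can cover for its loss in mice, fell to 50.4 ± 9.65 CPM in treated BPH/2J and 50.3 ± 12.7 CPM in vehicle BPH/2J mice, against 87.3 ± 13.7 CPM in treated BPN/3J and 90.7 ± 6.03 CPM in vehicle BPN/3J mice. Its log2 fold change was -0.85 under vehicle (edgeR adjusted p 0.00243) and -0.79 under Cmpd17b (edgeR adjusted p 0.00472). Of 29 phosphoinositide enzymes 2 rose and 2 fell under vehicle. Synj2, a synaptojanin phosphatase, rose by 1.73 to 6.11 ± 1.44 CPM in vehicle BPH/2J, against 1.84 ± 0.488 CPM in vehicle BPN/3J mice, and Pik3c3, the endosomal class III phosphoinositide kinase, rose by 1.003 (edgeR adjusted p 7.56e-05 and 0.00290). Pik3c2a, a class II kinase of endocytic membranes, fell by 0.63 in log2 units (edgeR adjusted p 0.0209), and its call was lost without BPH/2J vehicle replicates 3, 4 or 5 or BPN/3J vehicle replicates 1 or 3. Under Cmpd17b 1 rose (Synj2, by 1.82, edgeR adjusted p 2.58e-05) and 1 fell (Inpp5b).

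Among relatives of Clcn5, the late endosomal exchanger Clcn6 rose to 50.1 ± 8.13 CPM in vehicle BPH/2J, against 21.8 ± 1.88 CPM in vehicle BPN/3J mice. The log2 fold change was 1.20 under vehicle and 1.04 under Cmpd17b (edgeR adjusted p 2.62e-06 and 7.88e-06), and Clcn6 was the one called gene of 8 tested in its family in both. The endosomal Clcn3 and Clcn4 gave -0.39 and -0.15 under vehicle (edgeR adjusted p 0.264 and 0.584). In the list of proton pump subunits and other endosomal ion carriers 1 of 25 was called, Atp6v1c1, a subunit of the V-ATPase, which fell by 0.43 under vehicle and by 0.44 under Cmpd17b in log2 units (edgeR adjusted p 0.0179 and 0.0174).

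Among receptor chaperones and adaptors, Gipc1, which binds the tail of megalin, rose to 50.1 ± 4.72 CPM in vehicle BPH/2J, against 34.0 ± 3.45 CPM in vehicle BPN/3J mice, a log2 fold change of 0.56 (edgeR adjusted p 0.00222), and by 0.49 under Cmpd17b (edgeR adjusted p 0.00528). It was the one called gene of 13 tested under vehicle, and under Cmpd17b the neuronal adaptor Dab1, related to Dab2, was called too, at 1.30 (edgeR adjusted p 0.0297), a call that held in 13 of 18 fits that left out 1 library. Dab1 was low, at 3.51 ± 0.903 CPM in treated BPH/2J and 1.42 ± 0.618 CPM in treated BPN/3J mice. Lrpap1, the megalin chaperone, was at 436 ± 49.2 CPM in vehicle BPH/2J and 453 ± 3.79 CPM in vehicle BPN/3J mice, a log2 fold change of -0.06 (SE 0.106, edgeR adjusted p 0.772). Of 26 clathrin coat genes none was called under vehicle by edgeR, and 1 (the dynamin gene Dnm1, 0.995, edgeR adjusted p 0.0351) under Cmpd17b, a call that held in 14 of 18 fits that left out 1 library. Dnm1 was low as well, at 2.51 ± 1.09 CPM in treated BPH/2J and 1.25 ± 0.304 CPM in treated BPN/3J mice.

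Of 30 genes of endosome sorting and recycling 3 fell under vehicle and none rose. They were Rab38 (-0.46, edgeR adjusted p 0.0140), a GTPase that affects tubular protein uptake in rat, Rab5c of early endosomes (-0.36, edgeR adjusted p 0.0336) and Rab11fip3 of recycling endosomes (-0.54, edgeR adjusted p 0.0414). Under Cmpd17b 1 fell, Rab11fip3 (-0.60, edgeR adjusted p 0.0280), which held in 12 of 18 fits that left out 1 library. Rab38 kept its call under vehicle in 17 of 18 fits that left out 1 library, losing it without BPN/3J vehicle replicate 3, while Rab5c kept it in 11 and Rab11fip3 in 8.

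A list of 17 genes held other uptake receptors of the tubule. It also held the brush border peptidase genes Enpep, Anpep, Dpp4 and Mme, and B2m and Cd63. Of the 17 genes 1 rose and 3 fell under vehicle, and 2 rose and 3 fell under Cmpd17b, with a median log2 fold change under vehicle of 0.04. Fcgrt, the neonatal Fc receptor that recycles albumin and IgG, fell to 89.4 ± 2.28 CPM in treated BPH/2J and 90.0 ± 13.6 CPM in vehicle BPH/2J mice, against 179 ± 10.7 CPM in treated BPN/3J and 169 ± 6.88 CPM in vehicle BPN/3J mice. The groups did not overlap in either arm, and the log2 fold change was -0.91 under vehicle and -1.004 under Cmpd17b (edgeR adjusted p 5.34e-06 and 1.81e-06). Enpep, the brush border aminopeptidase A, fell by 1.10 under vehicle and by 0.94 under Cmpd17b in log2 units (edgeR adjusted p 0.00174 and 0.00684). Tfrc, the transferrin receptor, fell by 1.08 to 48.2 ± 11.04 CPM in vehicle BPH/2J, against 102 ± 22.8 CPM in vehicle BPN/3J mice (edgeR adjusted p 0.00196), and its fall of 0.68 under Cmpd17b (edgeR adjusted p 0.0462) held in 10 of 18 fits that left out 1 library. Folr2, a folate receptor that macrophages also express, rose by 2.83 under vehicle and 1.97 under Cmpd17b (edgeR adjusted p 0.00113 and 0.0114). It was at 1.84 ± 0.616 CPM in vehicle BPH/2J and 0.254 ± 0.124 CPM in vehicle BPN/3J mice, and the call under Cmpd17b was lost without treated BPH/2J replicate 5. Under Cmpd17b Mme, the brush border peptidase neprilysin, rose by 1.45 (edgeR adjusted p 0.0182), with calls lost without BPH/2J Cmpd17b replicate 2 or BPN/3J Cmpd17b replicates 2 or 3. Folr1, the folate receptor of the proximal tubule, was at 239 ± 59.3 CPM in vehicle BPH/2J and 243 ± 33.0 CPM in vehicle BPN/3J mice, a log2 fold change of -0.02 (edgeR adjusted p 0.950). Of the 13 lipoprotein receptor family genes tested beside Lrp2, Lrp1 rose under vehicle by 0.68 (edgeR adjusted p 0.0240) and none was called under Cmpd17b. The Lrp1 call was lost without BPH/2J vehicle replicates 2 or 4 or BPN/3J vehicle replicates 1 or 3. Vldlr gave -0.35 (edgeR adjusted p 0.110).

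Among genes of proteins that megalin and cubilin bind, some are also made in the kidney. Of 24 tested, 4 rose and 2 fell under vehicle and 3 rose and 1 fell under Cmpd17b. Clu, the clusterin gene, which is also a marker of tubular injury, rose to 231 ± 84.6 CPM in vehicle BPH/2J, against 108 ± 11.6 CPM in vehicle BPN/3J mice, by 1.10 under vehicle and 0.89 under Cmpd17b (edgeR adjusted p 0.00200 and 0.00761). Ttr, the thyroxine and retinol carrier transthyretin, rose by 6.59 and 6.07 (edgeR adjusted p 3.23e-10 and 1.52e-10). Ftl1, ferritin light chain, rose by 1.49 and 1.59 (edgeR adjusted p 0.000417 and 0.000128), though near-identical copies of this gene make its counts uncertain. Apoe rose by 0.81 under vehicle (edgeR adjusted p 0.00959). Selenop, the selenium carrier taken up through megalin, fell to 1918 ± 441 CPM in vehicle BPH/2J, against 3074 ± 271 CPM in vehicle BPN/3J mice, a log2 fold change of -0.68 under vehicle and -0.57 under Cmpd17b (edgeR adjusted p 0.0132 and 0.0392). The second of these held in 12 of 18 fits that left out 1 library.

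In the lysosome, where the cargo ends, 2 of 35 genes rose and 1 fell under vehicle, and 1 rose and 2 fell under Cmpd17b. Gusb, beta-glucuronidase, rose by 0.99 and 1.39 (edgeR adjusted p 0.00255 and 6.58e-05), and Gaa, acid alpha-glucosidase, fell by 0.56 and 0.63 in log2 units (edgeR adjusted p 0.000206 and 6.31e-05). Laptm4b (0.48 under vehicle, edgeR adjusted p 0.0424) and the protease gene Ctsl (-0.52 under Cmpd17b, edgeR adjusted p 0.0245) kept their calls in 7 and 14 of 18 fits that left out 1 library. Of 6 genes tested that handle vitamin D, whose carrier enters the cell through megalin, 2 fell under vehicle, Cyp24a1 (-1.93) and Calb1 (-0.57), and 1 under Cmpd17b, Calb1 (-0.60, edgeR adjusted p 0.0328, 0.0438 and 0.0387). These held in 11, 6 and 12 of the 18 fits. Calb1 is a gene of the distal convoluted tubule. In a list of 11 genes taken as regulators of proximal tubule identity, Esrra fell in both arms (-0.30 and -0.34, edgeR adjusted p 0.0333 and 0.0165), holding in 12 and 16 of the 18 fits. Pparg fell under Cmpd17b (-2.10, edgeR adjusted p 0.00533) and was low, at 0.874 ± 0.394 CPM in treated BPH/2J and 3.85 ± 0.805 CPM in treated BPN/3J mice. Which cells the Pparg RNA came from was not measured. Hnf4a was at 578 ± 107 CPM in vehicle BPH/2J and 701 ± 50.6 CPM in vehicle BPN/3J mice (-0.28, edgeR adjusted p 0.206). Where a gene was called in 1 arm alone, the interaction did not pass the test, so the strain difference is not shown to depend on the treatment.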

How the data were processed

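Kidney polyA RNA of 19 mice was sequenced, and the deposited table holds expected counts per gene made by the authors, with 4.63% to 10.1% of values per library not whole. The submitters' processing notes name STAR 2.7.9a, Trim Galore 0.6.7 and the build mm39. What counted the reads, with which annotation and whether by strand, is not given in the sources used here. The values were rounded to whole numbers. Genes were filtered with edgeR's filterByExpr (minimum count 10, total 15), which left 16421 of 40413, scaled by TMM and tested with edgeR 4.0.16's robust quasi-likelihood test in 1 fit of the 4 groups over 18 libraries, with Benjamini-Hochberg adjustment over all genes and a threshold of 0.05. R 4.3.3, limma 3.58.1, DESeq2 1.42.0 and sva 3.50.0 served the alternatives. Replicate 1 of the BPH/2J Cmpd17b group was left out, since it lacked proximal tubule transcripts and carried a heart muscle profile; whether samples were mixed up was not tested. Exon lengths came from an annotation of GRCm38 and were used as lengths only. The long-minus-short balance was related to the members by 100000 permutations within groups. The edgeR and permutation scripts were tested on simulated data.

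The 6 genes and all gene lists were chosen with earlier results of these data known. Named from the lists are up to 4 called genes per list and comparison with the smallest p, and per member the 4 genes of highest correlation. A list gene outside this rule appears where it is a direct partner of a member and was chosen after its values were seen. Each library is labelled as a separate mouse, and all carry the same batch label. Depth was 21400119 to 40998662 counts per library. Some genes of the lists are not reported here.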

Additional observations from a re-analysis of the deposited data

Results flagged for a closer look

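Of 24 gene and group combinations, 2 had 1 mouse far from the others of its group by Dixon's criterion, and chance gives about 1 in 20. Amn in vehicle BPN/3J mice had a gap of 0.963 of the group's range, since replicate 4 was at 114 CPM while the other mice were at 100.1, 101 and 100.1 CPM. That mouse also had the lowest long-minus-short balance of its group, -0.22. Clcn5 in treated BPN/3J mice had a gap of 0.712, since replicate 5 was at 78.6 CPM while the other 4 were at 102 to 112 CPM. Its balance was -0.31, again the lowest of its group. The part of this balance in either value was not tested.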

How the results depend on the processing

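No paired analysis was possible because the labels give no replicate numbers shared between groups. Of the members' log2 fold changes under settings other than leaving out 1 library, 297 kept their direction and side of the threshold, 8 passed it newly, 0 lost it and 19 changed sign; the causes were not tested. The number of members called under vehicle (0 as reported) was 1 with DESeq2, 2 with 1 surrogate variable, 1 with only the 2 groups, 1 with the long-minus-short covariate and 1 without the 3 libraries of lowest balance, and 0 to 2 when 1 library was left out; under Cmpd17b it was 1 with the surrogate variable and 1 without the 3 libraries. The covariate and the leaving out of the 3 libraries were chosen after seeing the data, and the calls without the 3 libraries are of Amn, whose direction that choice fixes.

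Changes of sign by setting were as follows, in log2 units. With all 19 libraries, Cmpd17b minus vehicle in BPH/2J was -0.10 for Lrp2, -0.15 for Cubn, -0.25 for Amn, -0.13 for Dab2, -0.088 for Clcn5 and -0.039 for Ocrl, and the interaction was -0.18 for Lrp2, -0.16 for Cubn, -0.21 for Dab2, -0.24 for Clcn5 and -0.0046 for Ocrl. The Clcn5 strain difference under Cmpd17b was 0.028 with the surrogate variable and 0.028 with the covariate. Ocrl in BPH/2J was -0.00092 with the covariate. Cubn in BPN/3J was -0.00078 with limma-voom, -0.016 with the surrogate variable, -0.0015 with only the 2 groups and -0.033 with the covariate. The Amn interaction was 0.033 without the 3 libraries. Relative to the S1 and S2 markers, Dab2 differed between strains by 0.066 under vehicle and 0.018 under Cmpd17b and Amn by 0.031 under Cmpd17b; Cmpd17b minus vehicle in BPH/2J was -0.098 for Lrp2, -0.14 for Dab2 and -0.075 for Clcn5, and in BPN/3J -0.0973 for Lrp2, -0.070 for Amn, -0.094 for Dab2 and -0.026 for Clcn5.

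With 1 library left out at a time, Amn ranged between -0.204 and 0.035 (strain, vehicle), -0.424 and 0.0128 (strain, Cmpd17b), -0.247 and 0.211 (Cmpd17b in BPH/2J) and -0.360 and 0.0988 (interaction). Ocrl ranged between -0.0919 and 0.164 in BPH/2J, -0.112 and 0.0566 in BPN/3J and -0.0581 and 0.197 in the interaction, and Cubn between -0.0827 and 0.0823 in BPN/3J, 0.0056 and 0.341 in BPH/2J and 0.00051 and 0.336 in the interaction. The interaction lay between -0.0259 and 0.175 for Dab2 and -0.0038 and 0.182 for Clcn5. Relative to the 29 proximal tubule markers, the ranges under vehicle between strains were -0.0834 to 0.0454 for Dab2 and -0.0089 to 0.154 for Clcn5. Under Cmpd17b they were -0.228 to 0.0140 for Lrp2, -0.290 to 0.115 for Amn, -0.0665 to 0.0511 for Dab2 and -0.0192 to 0.139 for Clcn5. For Cmpd17b in BPH/2J they were -0.0485 to 0.217 for Lrp2, -0.169 to 0.156 for Cubn, -0.373 to 0.0327 for Amn and -0.0412 to 0.0915 for Dab2, and in BPN/3J -0.0570 to 0.107 for Lrp2, -0.170 to 0.0470 for Cubn, -0.0173 to 0.127 for Amn and -0.187 to 0.0064 for Ocrl. Over all genes, the strain comparison under vehicle called 1766 as reported, 566 with all 19 libraries, 2984 with the surrogate variable and 2707 with the covariate. No detection limit was computed.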
